A study of Bos taurus with 8 samples.

Results

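The aminoacyl-tRNA synthetases are the enzymes that charge each transfer RNA (tRNA) with its amino acid before translation. Their genes were followed in the liver of fetal calves, where 35 synthetase genes were listed by name, 19 of cytosolic enzymes and 16 of mitochondrial enzymes, whose symbols end in 2. Probes were assigned to them through the RefSeq accession that the scanner files give for each probe. A probe was matched to 30 of the 35 genes, 18 cytosolic and 12 mitochondrial, and each of these 30 had a detected probe, meaning one with a signal clear of background in at least 4 of the 8 fetuses, as did 10860 genes of the array in all. VARS1, EARS2, LARS2, PARS2 and YARS2 had no matched probe and were not analysed here.

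Livers came from Japanese Black fetuses at 8.5 months of gestation, sired through male-sorted semen of an identical sire. The dams of the 4 LN (low nutrition) fetuses, L5, L6, L8 and L9, ate 60% of what they required, and the dams of the 4 HN (high nutrition) fetuses, L1, L2, L3 and L10, ate 120%. The study took fetuses of low body weight from LN and of high body weight from HN for this assay, so feeding level and fetal weight differ together, and no group received the full requirement without excess. Total RNA was read on 1-colour Agilent arrays, and each array is labelled with a single fetus, although the text describing the whole series mentions pools of RNA by group.

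A synthetase activates its amino acid with ATP and transfers it to the matching tRNA, and an elongation factor then carries the charged tRNA to the ribosome. Animal cells use separate nuclear genes for most cytosolic and mitochondrial synthetases, whereas single genes for the glycine enzyme (GARS1) and the lysine enzyme (KARS1) serve both compartments. Uncharged tRNA activates a kinase that slows general translation and favours the making of the transcription factor ATF4, which is known to raise transcription of amino acid transporters, of asparagine synthetase and of many cytosolic synthetases. The fetal liver is both a secretory organ, making the plasma proteins, and a site of blood formation.

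The scanner's background-subtracted intensities were put on a log2 scale and quantile normalized, so a log2 difference of 1 is a doubling. Between 32635 and 33371 of 43803 spots were well above background in LN and between 33254 and 34369 in HN, with 0 saturated. The LN fetuses shared 1 slide and the HN fetuses another, so slide cannot be told apart from group. All arrays carried the same scan date. The detected hepatocyte markers (7 of 8) had a summed log2 signal of 20.83 to 20.87 in LN and 20.83 to 20.89 in HN. Most of them lie at the top of the signal range, where quantile normalization gives every array the same set of values. Their near-equal sums therefore cannot show whether hepatocyte content was equal. Erythroid markers stood apart in LN fetus L5, whose sum was 12.71 against 8.92 to 9.69 in the other fetuses, over 5 detected markers, with SLC4A1, EPB42 and KLF1 matched but not detected. The sum of 7 of 8 neutrophil markers was 12.50 to 14.08 in LN and 11.96 to 13.29 in HN, and 3 of these 7 (MPO, CATHL4 and ELANE) were higher in LN at an unadjusted limma p of 0.05 (3.3% over all genes), whereas LTF differed by -0.22. The summed signal of 5 of 7 lymphocyte markers was 12.42 to 12.86 in LN and 12.62 to 13.05 in HN. In such tissue samples, fewer cells of a type and less RNA per cell cannot be told apart.

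Cytosolic synthetase genes were mostly higher in LN, and mitochondrial ones were divided. Of the 18 cytosolic genes, 16 had the higher mean in LN and 2, QARS1 and WARS1, the lower. Of the 12 mitochondrial genes, 7 were higher and 5 lower, with 6 higher under 75th percentile scaling (VARS2 turned) or normexp background correction (CARS2 turned). Across all 10860 genes 51.6% were higher in LN. The median difference, LN minus HN on the log2 scale, was 0.28 over the cytosolic genes (range -0.31 to 0.67), 0.03 over the mitochondrial genes (range -0.15 to 0.39) and 0.01 over all genes.

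None of these differences passed the adjusted threshold. With limma and Benjamini-Hochberg adjustment over all detected probes, 0 of 30 synthetase genes had an adjusted p of at most 0.05 (lowest 0.760), as did 0% of all 10860 genes. At an unadjusted limma p of 0.05, 10 cytosolic genes and 1 mitochondrial gene were higher in LN, and 0 of either were lower, where the background was 3.3% higher and 2.75% lower. By more than 0.32 on the log2 scale, the fold limit that the study used to choose genes for its pathway analysis, 8 cytosolic genes and 1 mitochondrial gene (MARS2) were higher and 0 were lower (background 7.82% and 8.63%). Every LN fetus lay above every HN fetus for 7 cytosolic genes and 1 mitochondrial gene (background 2.59%), and the opposite held for 0 (background 1.56%). The study had picked out aminoacyl-tRNA biosynthesis from these same arrays, so these counts are not independent evidence of the direction.

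**Figure D1:**
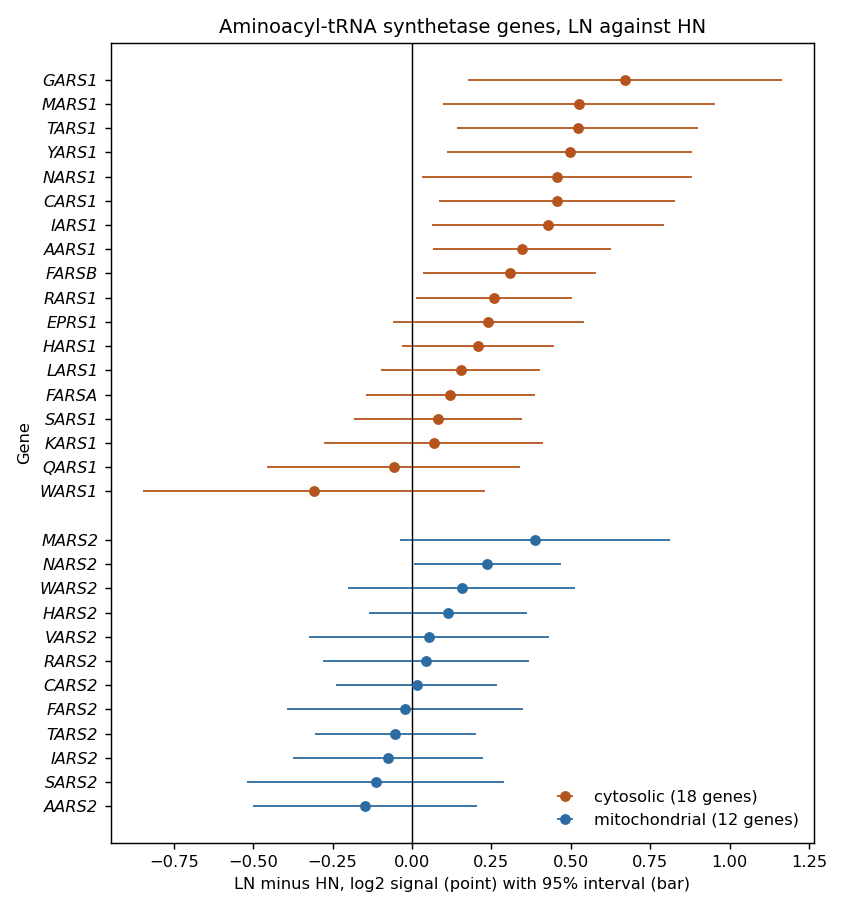
The horizontal axis gives LN minus HN in log2 signal for each of 30 synthetase genes, as the limma estimate (point) with its 95% interval (bar) from 4 LN and 4 HN fetuses. Of the 18 cytosolic genes 16 lie right of 0, with GARS1 at 0.67 and WARS1 at -0.31 as the extremes, whereas the 12 mitochondrial genes lie between -0.15 and 0.39.

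Glycine is joined to its tRNA by GARS1 (NM_001097566), which serves cytosol and mitochondria alike and had the largest difference of the 30 genes. Its log2 signal was 12.22, 12.56, 11.81 and 12.10 in LN fetuses L5, L6, L8 and L9, and 11.34, 11.63, 11.93 and 11.11 in HN fetuses L1, L2, L3 and L10. HN fetus L3 lay above LN fetus L8, and the other HN fetuses lay below all LN fetuses. The difference was 0.67 (standard error 0.22, limma adjusted p = 0.760, exact permutation p = 0.0571), a 1.59-fold higher mean signal in LN. Its other probes gave 0.65 and 0.87, and both separated the groups completely. The other enzyme of both compartments, KARS1 (lysine), differed by 0.07 with an interval of -0.28 to 0.41.

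A large complex of the cytosol, the multi-synthetase complex, holds several of the enzymes together with scaffold proteins. Of its 7 enzymes among the listed genes, 6 were higher in LN (51.6% over all genes), 3 of them (MARS1, IARS1 and RARS1) at an unadjusted limma p of 0.05 (3.3% over all genes), and the median difference was 0.24. With position on the slide as a block, only MARS1 of these kept that p. MARS1 (NM_001038091), which charges the initiator as well as the elongator methionine tRNA, was at 9.85, 10.04, 9.64 and 9.97 in LN fetuses L5, L6, L8 and L9 and at 9.53, 9.44, 9.60 and 8.83 in HN fetuses L1, L2, L3 and L10. The groups did not overlap, though L8 and L3 were only a little apart and L10 lay far below the rest. The MARS1 difference was 0.53 (standard error 0.19, limma adjusted p = 0.760, exact permutation p = 0.0286), with 0.55 and 0.57 from its other probes.

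IARS1 (NM_001101069), the isoleucine enzyme, was at 11.73, 11.64, 11.31 and 11.45 in the LN fetuses in the same order and at 10.99, 11.16, 11.43 and 10.84 in the HN fetuses. Here again L3 was the HN fetus that reached into the LN range. The 2 IARS1 probes differed by 0.43 each (standard error 0.16 for the brighter, limma adjusted p = 0.765, exact permutation p = 0.0571). RARS1 (NM_001105338), the arginine enzyme, was at 11.61, 11.60, 11.75 and 11.54 in LN and at 11.35, 11.37, 11.49 and 11.27 in HN. The groups did not overlap, and the spread within each was small (SD 0.09 in both). Its difference was 0.26 (standard error 0.11, limma adjusted p = 0.785, exact permutation p = 0.0286).

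The remaining enzymes of the complex showed smaller differences. EPRS1, which carries both the glutamate and the proline activity in 1 protein, differed by 0.24 (interval -0.06 to 0.54), and its dimmer probe, at 0.32, separated the groups. LARS1, the leucine enzyme that also senses leucine for the growth kinase mTORC1, differed by 0.15, with 4 of 4 probes higher in LN. QARS1, the glutamine enzyme, differed by -0.06 (interval -0.46 to 0.34), with 3 of 3 probes lower in LN. The QARS1 difference was -0.21 without L3 and 0.0093 without L9.

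Of the 11 cytosolic genes outside the complex, 10 were higher in LN (51.6% over all genes), 7 of them at an unadjusted limma p of 0.05 (3.3% over all genes), and the median difference was 0.35. With position on the slide as a block, FARSB and NARS1 lost that p. TARS1 (NM_001034370), the threonine enzyme, was at 10.73, 10.80, 10.38 and 10.42 in LN fetuses L5, L6, L8 and L9 and at 10.23, 9.97, 10.30 and 9.74 in HN fetuses L1, L2, L3 and L10. All LN fetuses were above all HN fetuses, by a narrow margin between L8 and L3. The difference was 0.52 (standard error 0.17, limma adjusted p = 0.760, exact permutation p = 0.0286).

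YARS1 (NM_174220), the tyrosine enzyme, was at 9.95, 10.21, 10.05 and 10.27 in LN and at 9.64, 9.38, 10.05 and 9.42 in HN. Fetus L3 alone of the HN group lay within the LN range, and the difference was 0.50 (standard error 0.17, limma adjusted p = 0.760, exact permutation p = 0.0857). NARS1 (NM_001046572), the asparagine enzyme, was at 12.86, 12.94, 12.69 and 12.75 in LN and at 12.53, 12.21, 12.76 and 11.90 in HN. The overlap again came from L3, and the HN group was spread far more widely (SD 0.38) than the LN group (SD 0.11). NARS1 differed by 0.46 (standard error 0.19, limma adjusted p = 0.785, exact permutation p = 0.0857), and its other probes by 0.20 to 0.27, and with the mean over its probes NARS1 differed by 0.29.

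CARS1 (NM_001103249), the cysteine enzyme, was read by 1 dim probe, at 6.07, 5.54, 5.90 and 5.43 in LN fetuses L5, L6, L8 and L9 and at 5.37, 5.35, 5.30 and 5.09 in HN fetuses L1, L2, L3 and L10. The groups did not overlap, and the difference was 0.46 (standard error 0.16, limma adjusted p = 0.760, exact permutation p = 0.0286). It depended on the scaling, at 0.30 with the 75th percentile and 0.18 with normexp, both under the limit of 0.32. AARS1 (NM_001101075), which charges alanine and edits misattached serine, was at 13.15, 12.82, 12.91 and 12.89 in LN and at 12.65, 12.56, 12.74 and 12.43 in HN. Again no HN fetus reached the LN range, and the AARS1 difference was 0.35 (standard error 0.12, limma adjusted p = 0.760, exact permutation p = 0.0286). Its other, dimmer probes differed by 0.27 and 0.17 with overlapping groups. AARS1 differed by 0.27 with the mean over its probes and by 0.28 without L5, both under the limit of 0.32.

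The phenylalanine enzyme is built from catalytic (FARSA) and tRNA-binding (FARSB) subunits. FARSB (NM_001105021) was at 12.54, 12.34, 12.65 and 12.47 in LN fetuses and at 12.29, 12.31, 12.10 and 12.07 in HN fetuses. These values did not overlap and differed by 0.31 (standard error 0.12, limma adjusted p = 0.782, exact permutation p = 0.0286), whereas FARSA differed by 0.12 (interval -0.15 to 0.39), or 0.063 without L8. Whether the subunits differed from each other was not tested.

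HARS1 (NM_001046066), the histidine enzyme, was at 10.69, 10.61, 10.88 and 10.76 in LN and at 10.55, 10.53, 10.50 and 10.52 in HN. The groups did not overlap, and the HN fetuses were nearly equal (SD 0.02). The difference was 0.21 (standard error 0.11, limma adjusted p = 0.788, exact permutation p = 0.0286). SARS1, the serine enzyme, differed by 0.08, with its 3 probes between -0.13 and 0.08. WARS1 (NM_174218), the tryptophan enzyme, is also known as an interferon-induced gene, and it was the cytosolic gene with the largest difference in the other direction. Its log2 signal was 7.08, 6.76, 7.20 and 6.17 in LN and 7.46, 7.14, 6.88 and 6.97 in HN. The groups overlapped, L9 lay well below all other fetuses, and the difference was -0.31 (standard error 0.24, limma adjusted p = 0.849, exact permutation p = 0.314), with 4 of 4 probes lower in LN. Without L9 it was -0.10, without HN fetus L1 -0.19, and with normexp -0.20.

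Taking every detected probe rather than 1 per gene gave similar counts. Of 47 cytosolic probes, 39 were higher in LN (50.3% of all detected probes were), 15 of them at an unadjusted limma p of 0.05 (background 3.35%) and 13 without overlap (background 2.44%). Of the 8 that were lower, 0 reached that p (background 2.97%) and 0 were without overlap (background 1.69%). Of 29 mitochondrial probes, 17 were higher, 2 at that p and 1 without overlap. Probes of a gene share its RNA and are not separate evidence. Among genes with more than 1 detected probe, the probes pointed in both directions for 1 of 15 cytosolic and 5 of 10 mitochondrial genes.

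Of the mitochondrial enzymes, MARS2 (NM_001098971, methionine) had the largest difference. It was at 8.89, 8.54, 8.95 and 8.83 in LN fetuses L5, L6, L8 and L9 and at 8.84, 8.33, 8.49 and 8.01 in HN fetuses L1, L2, L3 and L10. L1 lay among the LN fetuses, and the difference was 0.39 (standard error 0.19, limma adjusted p = 0.787, exact permutation p = 0.0857), or 0.25 without L10. NARS2 (NM_001098867, asparagine) was at 9.45, 9.46, 9.49 and 9.54 in LN and at 9.33, 9.24, 9.30 and 9.14 in HN. Its groups did not overlap, and the difference was 0.24 (standard error 0.10, limma adjusted p = 0.785, exact permutation p = 0.0286). Its other probes gave 0.34 and -0.05, so they did not point one way, and with any 1 fetus left out the unadjusted limma p of NARS2 was above 0.05. WARS2 (NM_001034582, tryptophan) was at 7.92, 8.26, 7.89 and 8.25 in LN and at 7.86, 7.97, 8.21 and 7.66 in HN, and its overlapping groups differed by 0.16 (standard error 0.16, limma adjusted p = 0.887, exact permutation p = 0.371). Its difference was 0.068 without L10 and 0.25 without L3.

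The other mitochondrial genes were closer to 0. HARS2 (histidine) differed by 0.11, or 0.068 without L10 and 0.058 with normexp. VARS2 (valine) differed by 0.05, RARS2 (arginine) by 0.04 and CARS2 (cysteine) by 0.02, and each of these changed sign under some alternatives. Below 0 were FARS2 (phenylalanine) at -0.02, TARS2 (threonine) at -0.05, IARS2 (isoleucine) at -0.07, SARS2 (serine) at -0.11 and AARS2 (alanine) at -0.15, or -0.050 without L6. With 1 fetus left out, TARS2 ranged from -0.12 to -0.025, IARS2 from -0.16 to -0.0048 and SARS2 from -0.23 to -0.014. With the mean over its probes TARS2 differed by -0.21. The second, dimmer probe of VARS2 differed by -0.80, against 0.05 for the brighter, and that value rests on LN fetus L6, at 0.70 where the other fetuses were at 2.99 to 4.04. HARS1 and HARS2 are next to each other in the reference gene table.

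**Figure D2:**
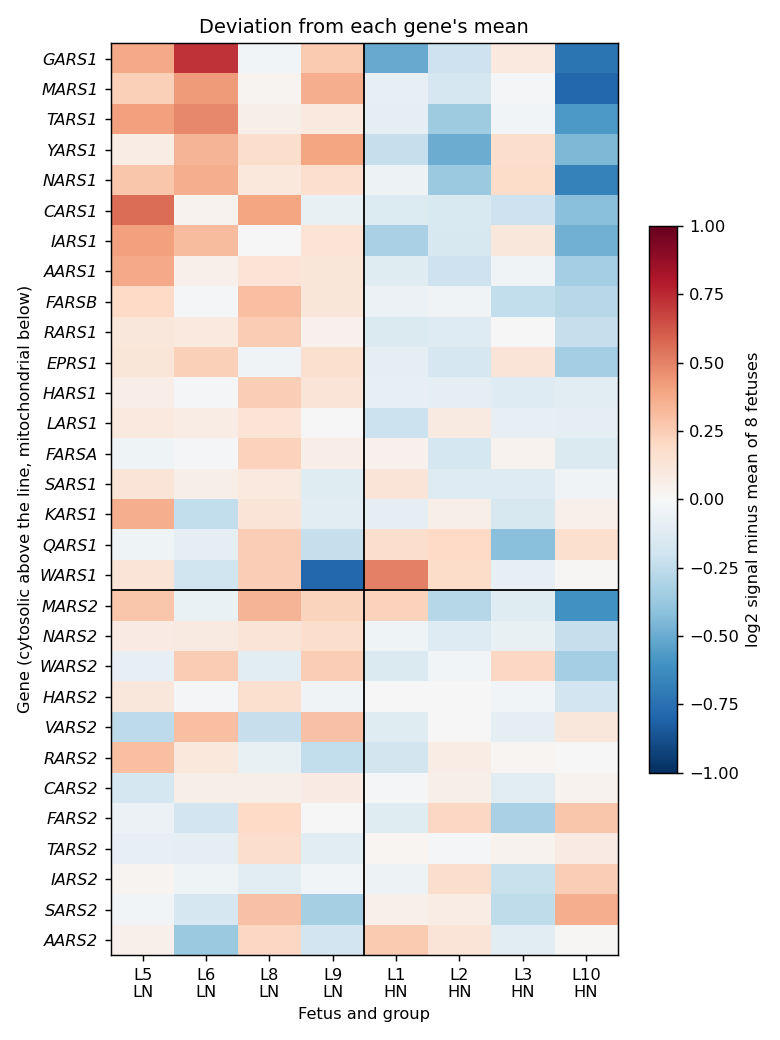
Each cell gives the log2 signal of a gene (rows, cytosolic above the line) in a fetus (columns, 4 LN then 4 HN) minus the gene's mean over 8 fetuses, red above and blue below that mean. HN fetus L10 is the lowest of 8 for 10 of the 18 cytosolic genes, and the mitochondrial rows show no common split between the groups.

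The fetuses of a group were not alike. The median deviation of the 18 cytosolic genes from their own means over 8 fetuses was 0.16, 0.07, 0.14 and 0.11 in LN fetuses L5, L6, L8 and L9 and -0.09, -0.16, -0.03 and -0.31 in HN fetuses L1, L2, L3 and L10. These did not overlap, and L3 was the HN fetus nearest to LN and L10 the farthest. The mean was 0.12 ± 0.04 in LN and -0.15 ± 0.12 in HN (SD, n = 4 each). Over the 12 mitochondrial genes the same median was 0.00, -0.03, 0.14 and -0.01 in LN and -0.03, 0.03, -0.10 and 0.03 in HN. These overlapped, with means of 0.03 ± 0.08 and -0.02 ± 0.06. The cytosolic median minus the mitochondrial median was 0.16, 0.10, -0.01 and 0.12 in LN and -0.06, -0.18, 0.07 and -0.33 in HN, where L3 lay above L8.

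**Figure D3:**
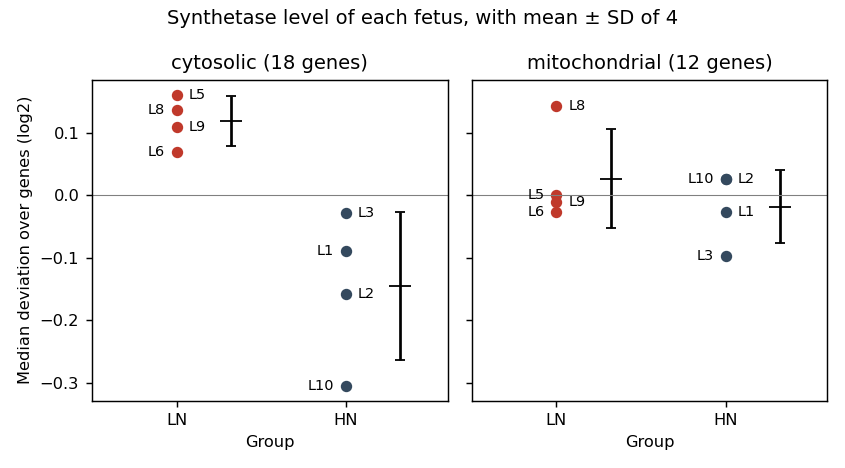
Points give, for each fetus, the median over 18 cytosolic (left) or 12 mitochondrial genes (right) of the log2 deviation from the gene's mean over 8 fetuses, and bars give the mean ± SD of 4 fetuses. The cytosolic medians lie between 0.07 and 0.16 in LN and between -0.31 and -0.03 in HN, and the mitochondrial medians overlap.

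Leaving out single fetuses changed how many genes reached the unadjusted limma p of 0.05. Of 11 genes with all 8 fetuses, 4 remained without LN fetus L5 and 4 without HN fetus L10, and these were GARS1, MARS1, TARS1 and YARS1 in both cases, where 2.40% and 1.89% of all genes were higher at that p. GARS1, TARS1 and YARS1 were the genes that kept that p whichever fetus was left out. The cytosolic median difference stayed between 0.25 and 0.31 with any fetus left out, against -0.02 to 0.06 for the mitochondrial median. With the position on the slide as a block, 6 genes reached that p (2.43% of all genes), which were AARS1, CARS1, GARS1, MARS1, TARS1 and YARS1. LN fetus L5, with its high erythroid markers, had the highest cytosolic median, and without it that median difference was 0.27. L10, with the lowest cytosolic median, had the lowest sum of neutrophil markers (11.96), whereas L5 had a lower sum (12.50) than HN fetuses L2 (13.06) and L3 (13.29). The part of neutrophil RNA in these differences was not tested.

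Each amino acid with both genes measured allows a ratio of the cytosolic to the mitochondrial signal within an array, which does not depend on a constant scaling of that array. Of 16 pairs listed, 11 were measured. The log2 ratio was higher in LN for 10 of the 11 amino acids and lower for tryptophan, and the median difference was 0.21. With 0 of 11 pairs did the groups separate completely, and none reached 0.0286, the lowest p possible in an exact permutation test of 4 against 4. The p-values of the ratios are not adjusted for the 11 pairs.

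The threonine ratio (TARS1 over TARS2) had the largest difference. It was 0.37, 0.45, -0.24 and 0.09 in LN fetuses L5, L6, L8 and L9 and -0.22, -0.45, -0.17 and -0.77 in HN fetuses L1, L2, L3 and L10. L8 lay among the HN fetuses, and the difference was 0.57 (exact permutation p = 0.0857). The isoleucine ratio (IARS1 over IARS2) differed by 0.50 (exact permutation p = 0.0857), with L3, at 1.16, inside the LN range of 0.93 to 1.20. The alanine ratio (AARS1 over AARS2) differed by 0.49 (exact permutation p = 0.0571), and by 0.33 with the mean over probes. The cysteine ratio (CARS1 over CARS2) differed by 0.44 (exact permutation p = 0.0857), but by 0.22 with normexp, 0.27 with the 75th percentile and 0.27 without L5.

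The methionine ratio differed by only 0.14 (exact permutation p = 0.514), since MARS1 and MARS2 were both higher in LN. Its difference was -0.0017 without L6 and 0.26 without L8. The ratios of asparagine, arginine, serine, phenylalanine and histidine differed by 0.22, 0.21, 0.20, 0.14 and 0.09. Each moved by a large part with 1 fetus left out, to 0.11 for asparagine, 0.096 for serine and 0.026 for phenylalanine without L10, 0.14 for arginine without L8 and 0.056 for histidine without L9. With FARSB in place of FARSA the phenylalanine difference was 0.33 and the groups separated (exact permutation p = 0.0286). The tryptophan ratio (WARS1 over WARS2) differed by -0.46 (exact permutation p = 0.200), and by -0.20 without L9.

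**Figure D4:**
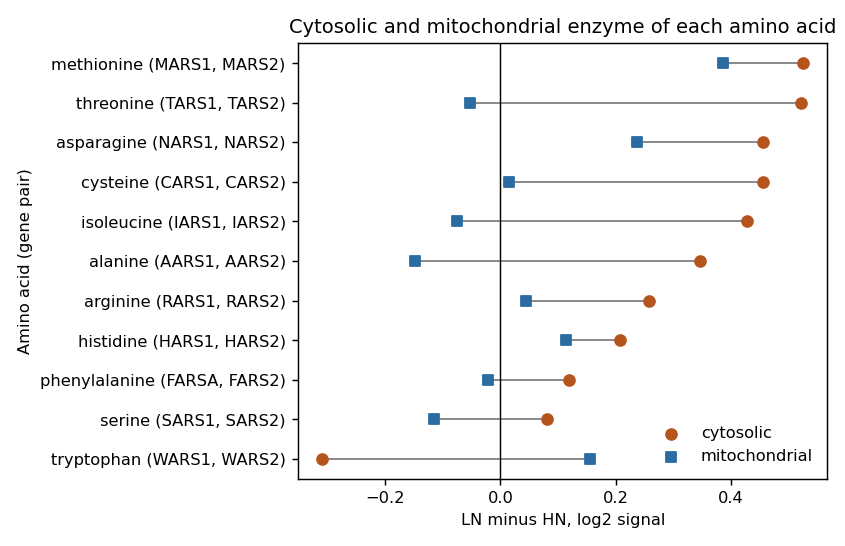
For each of 11 amino acids the horizontal axis gives LN minus HN in log2 signal of the cytosolic gene (circle) and of its mitochondrial counterpart (square). The circle lies to the right of the square for 10 amino acids and to the left for tryptophan.

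Within the cytosolic list, 12 genes are known as targets of ATF4. Of these, 11 were higher in LN, 8 at an unadjusted limma p of 0.05 and 8 by more than 0.32, with a median difference of 0.44, where the shares over all genes were 51.6%, 3.3% and 7.82%. The exception was WARS1. Of the other 6 cytosolic genes, 5 were higher, 2 of them (FARSB and RARS1) at that p and 0 by more than 0.32, with a median of 0.16. With position on the slide as a block, IARS1 and NARS1 of the first list and FARSB and RARS1 of the second lost that p. The difference between these lists was not tested.

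Genes of the amino acid response outside the synthetases were also mostly higher in LN. Of 11 detected, 10 were higher (51.6% over all genes), 4 at an unadjusted limma p of 0.05 (3.3% over all genes), with a median of 0.27. ASNS, which makes asparagine, differed by 0.85 (standard error 0.27, limma adjusted p = 0.760, exact permutation p = 0.0286) and its groups did not overlap. TRIB3, a feedback inhibitor of ATF4, differed by 0.73, ATF4 itself by 0.48 and SLC3A2, the shared heavy chain of several amino acid transporters, by 0.34, each at an unadjusted limma p of 0.05 with overlapping groups. CEBPB was the gene of this list that was lower in LN, by -0.07.

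Of the genes for scaffold proteins of the multi-synthetase complex, 3 of 3 had the higher mean in LN (51.6% over all genes), and 1, EEF1E1, did so at an unadjusted limma p of 0.05 (3.3% over all genes) and without overlap (2.59% over all genes). AIMP1 differed by 0.17 and AIMP2 by 0.11, with overlapping groups, and EEF1E1 by 0.33. EEF1E1 was at 7.62, 7.51, 7.84 and 7.48 in LN fetuses L5, L6, L8 and L9 and at 7.43, 7.16, 7.40 and 7.13 in HN fetuses L1, L2, L3 and L10. Its groups did not overlap (standard error 0.13, limma adjusted p = 0.785, exact permutation p = 0.0286). TARS3, a cytosolic threonine enzyme outside the 35 listed genes, was dim and well above background on 3 LN arrays and 1 HN array, so its measured difference of 0.90 is set against an HN level that was mostly not well above background.

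In the steps before and after charging, 0 genes reached an unadjusted limma p of 0.05, which 3.3% of all genes did as higher and 2.75% as lower. Against 51.6% of all genes, those of tRNA transcription by RNA polymerase III were higher in LN for 9 of 13 detected (median 0.07), and those of tRNA maturation and export for 10 of 14 (median 0.08). Delivery to the ribosome had 5 of 6 higher (median 0.09), proofreading and peptidyl-tRNA release 3 of 3 (median 0.18, with no overlap for DTD1), and conversion of the amino acid on the tRNA 4 of 5 (median 0.10).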

How the data were processed

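For each array the authors deposited the scanner's table, whose processed intensity is already background-subtracted by Feature Extraction 11.0.1.1, per the file headers, with arrays not yet set to a common scale. A second deposited table holds log2 values of 31068 probes, quantile normalized per the methods of the study. Of these probes, 31061 were among those well above background on every array here, and quantile normalization of the intensities gave the deposited values to within 0.0423.

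Here, control spots and outlier spots were left out (16 probes lost), log2 intensities of repeated spots were averaged, and quantile normalization covered 43637 probes. Detection asked for a signal well above background on 4 or more of the 8 arrays, and 33439 probes passed. Through their accessions, 26740 probes were assigned to 12603 genes of the RefSeq table (assembly ARS-UCD2.0). The array was designed on another build, and coordinates are not printed. The probe with the highest mean signal among a gene's detected probes stood for the gene. The groups were compared by limma 3.58.1 (R 4.3.3, lmFit then eBayes, 2-sided), and p was adjusted by Benjamini-Hochberg over the detected probes. The 2-sided exact permutation tests ran through all 35 divisions of the fetuses. In simulated data of 33439 probes for LN against HN, an adjusted p of 0.05 found 0% of 200 probes with a log2 change of 0.5, 47.5% with a change of 1 and 90.5% with a change of 2.

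The members and gene lists were chosen with earlier results of these data known. A synthetase is given with the values of every fetus when its groups do not overlap, its unadjusted limma p is at most 0.05, or its difference is among the 3 largest in size of its compartment. A pathway gene is named at that p, and AIMP1, AIMP2, CEBPB, DTD1, LTF and the values of every fetus for WARS1 were chosen after their values were seen. Values of some further pathway genes are not reported here. The alternatives were 75th percentile scaling, normexp (offset 50), the authors' table, 2 other filters on dim probes, eBayes with trend and robust settings, a Student test per probe, position on the slide as a block, the mean over a gene's probes, and each fetus left out. The number of arrays limits the precision.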

Additional observations from a re-analysis of the deposited data

Results flagged for a closer look

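In 7 of 88 groups of 4 values examined, 1 fetus stood apart from the other 3 by Dixon's gap test at the 95% level, and chance flags about 1 in 20 groups. QARS1 in HN fetus L3 was at 10.17, against 10.75 to 10.78 in the other HN fetuses. CARS2 in LN fetus L5 was at 10.86, against 11.10 to 11.12. HARS2 in HN fetus L10 was at 10.90, against 11.06 to 11.09, and the log2 ratio of HARS1 to HARS2 in the same fetus was -0.38, against -0.56 to -0.54. TARS2 in LN fetus L8 was at 10.62, against 10.33 to 10.36, and the mitochondrial median deviation of L8 was 0.14, against -0.03 to 0.00. The log2 ratio of AARS1 to AARS2 in HN fetus L3 was 2.72, against 2.26 to 2.31.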

How the results depend on the processing

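Under every alternative run, 0 synthetase genes passed a limma adjusted p of 0.05. Of the 30 genes, 23 kept their direction under all alternatives, among them 15 of 18 cytosolic genes (14 higher in LN, and WARS1 lower, at -0.10 without L9). The number at an unadjusted p of 0.05 was 11, fell to 6 with position on the slide as a block, and was 4 to 10 with 1 fetus left out (4 without L5 and 4 without L10, 7 without L6, L8 or L9). Of all genes, 3.39%, 3.02% and 2.82% were higher at that p without L6, L8 and L9. Without L3, where the count was 10, that share was 4.15%. Reversed were VARS2 with 75th percentile scaling (-0.069), CARS2 with normexp (-0.044), and, with the mean over detected probes, FARS2 (0.041), SARS1 (-0.0053) and VARS2 (-0.37). With 1 fetus left out, the sign also turned within the ranges of KARS1 (-0.041 to 0.16), RARS2 (-0.050 to 0.13), CARS2 (-0.019 to 0.077), FARS2 (-0.13 to 0.066), VARS2 (-0.038 to 0.15), QARS1 (-0.21 to 0.0093) and the MARS1 to MARS2 ratio (-0.0017 to 0.26). The cause was not tested. The median of all genes was -0.02 with 75th percentile scaling, and the mitochondrial median was then -0.0054. Groups separated in the threonine ratio without L8 (0.71), the cysteine ratio without L9 (0.57) and the isoleucine ratio without L3 (0.70). No paired analysis was possible because LN and HN fetuses share no replicate numbers (position on the slide is a place on the array, not a pairing of fetuses). A log2 change of 0.5 was not called after adjustment in simulated data with 200 changed probes and independent noise for each probe. Real arrays can differ from that setting, so it gives no exact limit for these genes.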
